A study of Mus musculus with 57 samples.

Results

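The genes of the respiratory chain and ATP synthase were followed in bulk RNA-seq of 57 mouse hearts. The set held the 101 gene symbols shared by both count tables, out of 25416 shared symbols, that begin with the names of complex I (Nduf), II (Sdh), III (Uqcr), IV (Cox) or V (Atp5) subunits, or that name a protein-coding gene of mitochondrial DNA (mt-). Of 109 matching symbols, 8 named as pseudogenes were left out. Another 4 kept by the rule, Cox6c2, Ndufa11b, Ndufb4c and Ndufs6b, are processed pseudogenes in GENCODE M21 and are counted among the nuclear genes. The set had 88 nuclear genes and the 13 protein-coding genes of mitochondrial DNA. Complex I had 40 nuclear and 7 mitochondrial DNA genes, complex II 4 nuclear genes, complex III 8 and 1, complex IV 19 and 3, and complex V 17 and 2.

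The hearts came from a pair of studies of doxorubicin (Doxo), an anthracycline anticancer drug that damages the heart, with or without nicotinamide mononucleotide (NMN), a precursor of NAD+. In the acute study, wild-type male C57BL6/J mice, 9 weeks old at purchase, received saline (Ctrl, n = 14), a single intraperitoneal Doxo dose of 20 mg/kg (Doxo, n = 13), or that dose with NMN at 180 mg/kg/day by intraperitoneal injection from 5 days before it (Doxo-NMN, n = 13), and hearts were taken on day 5. In the chronic study, wild-type male B6 mice (the same strain, from another supplier) aged 14 to 16 weeks received PBS (Ctrl, n = 5), 5 Doxo injections of 4 mg/kg (Doxo, n = 6), or those injections with NMN at 500 mg/kg/day in drinking water from 5 days before the first (Doxo-NMN, n = 6), and hearts were taken 60 days after the first injection. Each sample was the heart of 1 mouse alive on that day, and neither study had a group given NMN alone. In bulk hearts, fewer cells of a type and less RNA per cell cannot be told apart.

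The respiratory chain passes electrons from NADH (complex I) and succinate (complex II) through ubiquinone, complex III and cytochrome c to oxygen at complex IV, and complex V uses the resulting proton gradient to make ATP. Heart muscle is among the tissues richest in these complexes. Most subunits are encoded in the nucleus and imported, while a few core subunits of complexes I, III, IV and V are transcribed inside the mitochondrion, as long precursors that are cut at tRNAs. Complex II has no subunit from mitochondrial DNA.

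Total counts ran from 32409622 to 52102850 in acute hearts and from 17769886 to 23862287 in chronic hearts. Of counts from 1 to 20, 70.9% to 78.6% were even in acute and 39% to 41.9% in chronic hearts. If acute reads were counted more than once, which is not given in the sources used here, the acute totals overstate the reads behind them. Cardiomyocyte markers were high in all groups, with a summed level (in CPM, counts scaled to a common library size) of 30440 to 83092 in acute and 59114 to 85326 in chronic hearts. Atrial markers varied widely among acute hearts: their sum over 4 genes ran from 43.9 to 4922 CPM in Ctrl, 32.5 to 1677 in Doxo and 27.1 to 3459 in Doxo-NMN hearts. The sum of 5 red blood cell markers was 437 to 4311 CPM in acute Ctrl hearts, and in acute Doxo hearts its median was 2.30 CPM. Acute Doxo replicate 6 stood apart from its group, with a red blood cell sum of 338 CPM, and counts are also given without it.

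Sequence bore on the measurement first, because several genes of mitochondrial DNA have near-identical nuclear copies. A read from such a stretch fits both places, and how the authors counted such reads is not given in the sources used here. In GENCODE M21 (GRCm38), copies at 99.7% to 100% identity of mt-Co2, mt-Atp6, mt-Co3, mt-Nd3 and mt-Nd4l, and of part of mt-Co1 and mt-Nd4, lay side by side at chr1:24611535-24616197 as unprocessed pseudogenes. The clearest pair is mt-Nd3, a core membrane subunit of complex I, and its copy Gm28438, which differ at 1 of 345 aligned bases, T3C, counted from the first base of mt-Nd3. Their opening bases are shown with that base in capitals, mt-Nd3 from chrM:9459-9500 on the plus strand and Gm28438 from chr1:24613078-24613119 on the minus strand.
mt-Nd3: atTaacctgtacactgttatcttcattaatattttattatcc
Gm28438: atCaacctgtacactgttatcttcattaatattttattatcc
The chronic table listed these copies (0.684 to 62.3 CPM over the 7), and the acute table did not list them.

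The 6 adjacent genes mt-Co2, mt-Atp8, mt-Atp6, mt-Co3, mt-Nd3 and mt-Nd4l (chrM:7013-10173) were low in both tables and far lower in the chronic one. They held 1.13% to 1.38% of the counts of all 13 genes in acute Ctrl hearts and 0.00208% to 0.00543% in chronic Ctrl hearts. In the chronic hearts mt-Nd4l had 0 to 3 counts, mt-Atp8 0 to 4, mt-Co3 12 to 20, mt-Co2 4 to 30, mt-Atp6 7 to 30 and mt-Nd3 51 to 208. mt-Atp8 has no annotated copy of its own, but overlaps mt-Atp6. Of these 6 genes, mt-Nd4l and mt-Atp8 were not tested in the chronic hearts.

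**Figure D1:**
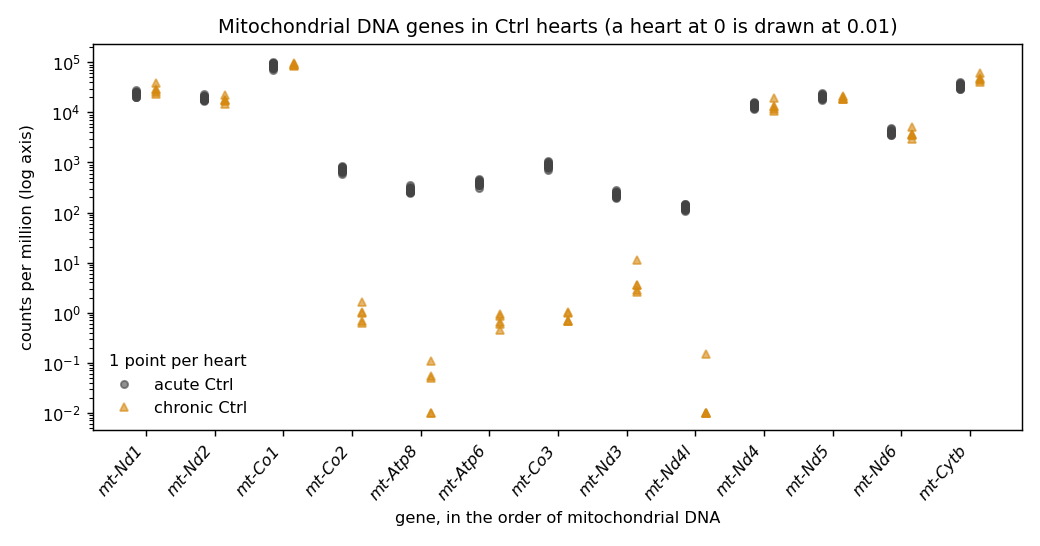
Level of the 13 protein-coding genes of mitochondrial DNA (CPM, log axis) in each acute Ctrl heart (grey circles, n = 14) and chronic Ctrl heart (orange triangles, n = 5), in the order of the mitochondrial genome, with a heart at 0 drawn at 0.01. The 6 genes from mt-Co2 to mt-Nd4l sit below the others in both tables, and between 0 and 11.3 CPM in the chronic hearts.

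The other 7 genes made mitochondrial DNA a large part of every library. The 13 genes took 19.1% to 23.1% of counts in acute Ctrl hearts (median 20.9%), 16.5% to 22.5% in Doxo (19.8%) and 16.2% to 21.8% in Doxo-NMN hearts (18.6%). mt-Co1, the catalytic subunit of complex IV, alone took 7.89% to 9.82% in acute Ctrl hearts. The 88 nuclear genes together took 3.74% to 4.28% in acute Ctrl (median 3.96%), 3.23% to 4.06% in Doxo (3.66%) and 3.40% to 4.56% in Doxo-NMN hearts (4.08%). In the chronic Ctrl hearts the 13 genes took 19.2% to 26.5% and the nuclear genes 4.02% to 4.84%. All these ranges overlapped between groups.

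Per kilobase of merged exons, mt-Co1 led with a mean of 56348 CPM/kb in acute Ctrl hearts, followed by mt-Cytb (the complex III cytochrome) at 29961, mt-Nd1 at 24753 and mt-Nd2 at 18800. The highest nuclear genes on the same scale were Atp5a1 (1389 CPM/kb) and Atp5b (1177), which form the catalytic head of complex V, and Cox6a2 (1139), the heart and skeletal muscle form of a complex IV subunit. In complexes I, II and III the highest were Ndufa4 (448 CPM/kb, a subunit now placed in complex IV), Sdha (407, the flavoprotein that oxidizes succinate) and Uqcrfs1 (562, the Rieske iron-sulfur protein). The striated muscle isoforms outweighed the widely expressed ones: per length, Cox6a2 made a median of 95.4% of Cox6a1 and Cox6a2 in acute Ctrl hearts, and Cox7a1 made 76.5% to 82.9% of Cox7a1 and Cox7a2. Cox8c had no count in any heart. Levels of 5 nuclear and 6 mitochondrial DNA genes differed more than 5-fold between the Ctrl hearts of the 2 tables, so levels are compared only within a table. The 5 nuclear genes were the 4 processed pseudogenes and Atp5l (subunit g of complex V), with a mean of 119 CPM in acute and 8.62 in chronic Ctrl hearts and 10 annotated copies at 95% identity or more.

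Promoters were read for the nuclear genes, 66 of 88 of which matched the RefSeq promoter table (GRCm38.p6, 250 bases before to 50 after the start). Those of 3 genes with large changes in acute Doxo hearts are shown here, Cox7a1 and Ndufs8 (lower) and Ndufv1 (higher), with matches to the searched motifs in capitals on either strand. Cox7a1 lies at chr7:30183921-30184220 (plus strand) and holds 2 CCAAT boxes on its reverse strand, Ndufs8 lies at chr19:3912725-3913024 (minus strand) with 3 CCAAT boxes, 1 ETS and 1 YY1 match, and Ndufv1 at chr19:4012706-4013005 (minus strand) with 1 E-box.
Cox7a1: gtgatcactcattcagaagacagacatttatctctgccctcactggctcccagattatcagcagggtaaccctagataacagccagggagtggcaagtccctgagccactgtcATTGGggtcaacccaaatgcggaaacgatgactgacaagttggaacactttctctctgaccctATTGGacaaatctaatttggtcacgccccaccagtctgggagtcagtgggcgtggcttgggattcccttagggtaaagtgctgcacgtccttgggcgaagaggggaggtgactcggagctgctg
Ndufs8: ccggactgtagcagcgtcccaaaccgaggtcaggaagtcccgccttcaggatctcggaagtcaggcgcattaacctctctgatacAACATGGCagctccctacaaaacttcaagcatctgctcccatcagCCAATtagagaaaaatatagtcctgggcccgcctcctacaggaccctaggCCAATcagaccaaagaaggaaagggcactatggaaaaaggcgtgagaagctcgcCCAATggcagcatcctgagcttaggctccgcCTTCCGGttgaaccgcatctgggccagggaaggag
Ndufv1: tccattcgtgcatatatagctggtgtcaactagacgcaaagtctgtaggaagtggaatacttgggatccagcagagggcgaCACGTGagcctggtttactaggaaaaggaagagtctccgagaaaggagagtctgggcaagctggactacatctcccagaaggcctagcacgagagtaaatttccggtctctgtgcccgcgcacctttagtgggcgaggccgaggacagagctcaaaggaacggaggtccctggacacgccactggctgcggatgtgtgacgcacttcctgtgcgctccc
Ndufa4l2 had no entry.

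Motifs were searched on both strands, and no motif string contains another. The NRF1 motif (GCGCA, any base, then GCGC), of a factor known to drive nuclear genes of the respiratory chain, was found in 24.2% of the 66 promoters and in 4.78% of all 27025 promoters in the table. ETS (CCGGAAG) was in 22.7% and 9.12%, YY1 (AANATGGC) in 21.2% and 6.23%, and the ERR motif TCAAGGTCA in 3.03% and 0.407%. The shares for CCAAT (43.9% and 37.9%), the SP1 motif GGGCGG (39.4% and 35.9%) and the E-box CACGTG (7.58% and 7.24%) lay near those of all promoters. Of the 16 promoters of genes that fell in acute Doxo hearts, 5 held NRF1, 4 ETS, 6 YY1, 8 CCAAT, 5 SP1, 1 ERR and 1 the E-box. Of the 6 promoters of genes that rose, 1 held NRF1, 1 ETS, 0 YY1, 2 CCAAT, 2 SP1, 0 ERR and 3 the E-box. A match is a string of letters, not a shown binding site.

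The first acute comparison asked how a single Doxo dose changed these genes by day 5. Doxo vs. Ctrl hearts had 11 members higher and 21 lower among the 99 tested (edgeR quasi-likelihood test, Benjamini-Hochberg adjusted p under 0.05), against 34.8% of all 14240 genes called higher and 33.3% called lower. In all, 32 of 99 members passed, beside 9694 of all 14240 genes. With a change of at least 1.5-fold as well, 0 members were higher and 3 lower, against a background of 14.7% and 15.4%. Nuclear genes gave 9 higher and 21 lower of 86, and mitochondrial DNA 2 higher and 0 lower of 13. The median log2 fold change was -0.07 for nuclear and 0.01 for mitochondrial DNA members, and -0.0016 over all genes tested.

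By complex, nuclear genes of complex I gave 4 higher and 11 lower of 40, complex II 0 and 1 of 4, complex III 1 and 3 of 8, complex IV 2 and 3 of 17, and complex V 2 and 3 of 17. The 2 higher in complex IV were Cox6c and the processed pseudogene Cox6c2. The processed pseudogene Ndufs6b was among the 11 lower in complex I. The cardiomyocyte marker sum moved the same way, with a median of 67031 CPM in Ctrl and 54177 in Doxo hearts, 5 of 7 markers lower and 1 higher. All 5 red blood cell markers were lower and the 3 neutrophil markers tested were higher. Of the other marker lists, 1 of 4 atrial markers was lower, 1 endothelial, 1 fibroblast and 1 macrophage marker were higher and 2 lower of 5 each, and the 1 brown fat marker tested was higher. The part of these cell type markers in the members' changes was not tested. Among hearts with the atrial light chain gene Myl4 under 100 CPM (6 Ctrl, 8 Doxo), 7 members were higher and 18 lower, against 28.5% and 26.3% of all genes in that fit. Among hearts at or above it (8 and 5), 4 were higher and 35 lower, against 30.6% and 29.6%. In that class Myl4 ran from 796 to 1570 CPM in Ctrl, 255 to 592 in Doxo and 480 to 1169 in Doxo-NMN hearts. The Myl4 classes therefore do not match the groups in Myl4 level. Without Doxo replicate 6, 12 members were higher and 26 lower, against 35.7% and 34.2%.

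**Figure D2:**
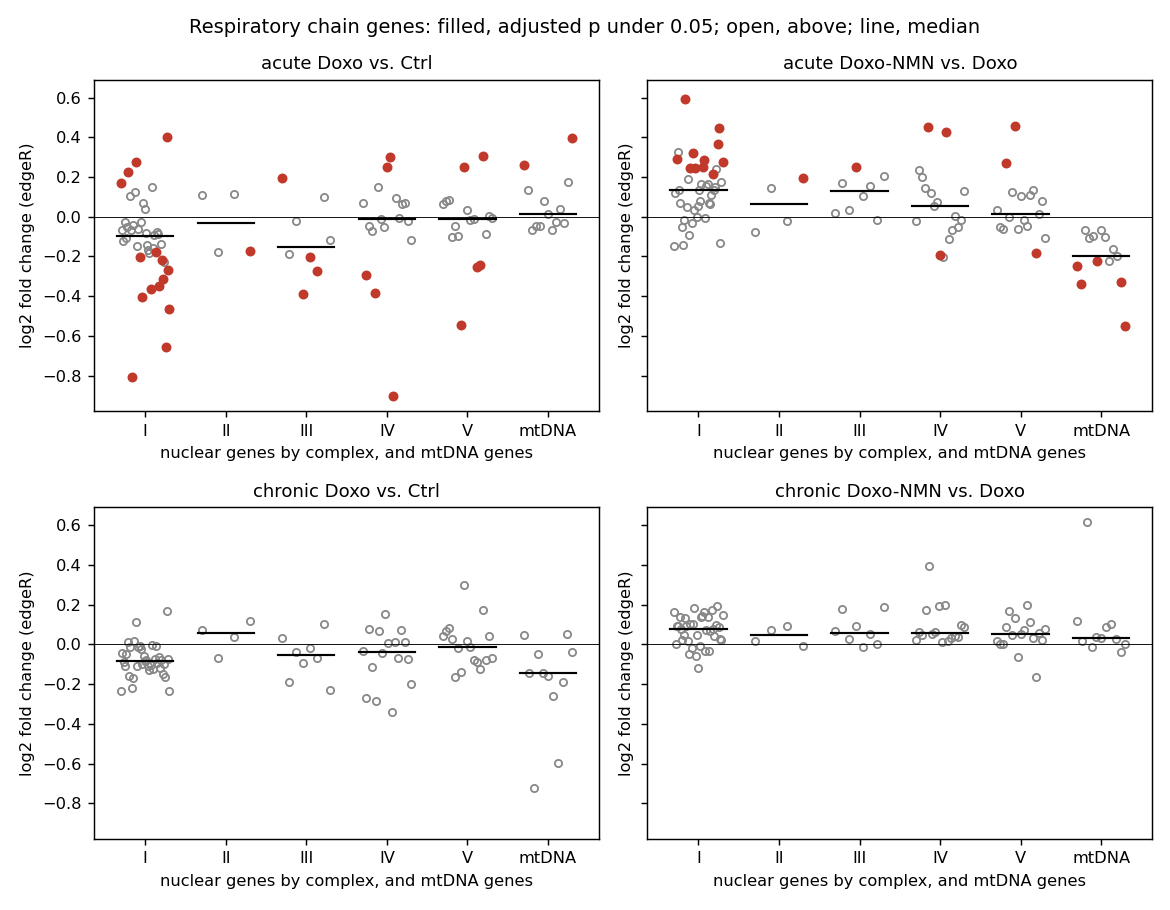
Log2 fold change (edgeR) of each respiratory chain gene, with nuclear genes by complex and mitochondrial DNA (mtDNA) genes together, in 4 comparisons, where filled points have an adjusted p under 0.05 and the line is the median of the column. Doxo vs. Ctrl shows 32 filled points in the acute hearts and Doxo-NMN vs. Doxo 24, and the chronic panels hold none.

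Cox7a1, the heart and skeletal muscle form of a complex IV subunit, showed the largest fall. Ctrl hearts had 362 to 537 CPM (median 431) and Doxo hearts 150 to 469 (median 219). In Doxo, 12 of 13 hearts lay below every Ctrl heart, and the exception at 469 CPM was replicate 6. The log2 fold change was -0.90 ± 0.136 (SE), a fold of 0.535, with an adjusted p of 4.07e-07. Its widely expressed counterpart Cox7a2 had a log2 fold change of 0.09 ± 0.0632 (adjusted p = 0.183), so the Cox7a1 share of the pair per length ran from 76.5% to 82.9% in Ctrl (median 78.1%) and from 55.2% to 80.0% in Doxo hearts (median 63.9%).

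Ndufa4l2, a paralog of Ndufa4 known as a hypoxia-induced gene, had 8.66 to 13.7 CPM in Ctrl hearts (median 10.7) and 3.85 to 11.1 in Doxo hearts (median 6.17). Here 11 of 13 Doxo hearts were below every Ctrl heart. The log2 fold change was -0.81 ± 0.121 (adjusted p = 3.52e-07), while Ndufa4 itself stood at -0.07 ± 0.0675 (adjusted p = 0.385). Its share of the pair per length had a median of 2.14% in Ctrl and 1.18% in Doxo hearts.

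Ndufs8, which carries iron-sulfur clusters in the hydrophilic arm of complex I, had 168 to 247 CPM in Ctrl (median 202) and 82.2 to 217 in Doxo hearts (median 126). Replicate 6 was again the highest Doxo heart, and the other 12 were below every Ctrl heart. The log2 fold change was -0.66 ± 0.11 (adjusted p = 2.55e-06). Ndufv1, its neighbour in function as the subunit that binds NADH, went the other way. It had 590 to 755 CPM in Ctrl (median 656) and 656 to 1127 in Doxo hearts (median 866), with 11 of 13 Doxo hearts above every Ctrl heart and a log2 fold change of 0.40 ± 0.0743 (adjusted p = 1.21e-05). In the same arm, the accessory subunit Ndufv3 fell by 0.46 on the log2 scale (SE 0.0921, adjusted p = 3.43e-05) and the accessory subunit Ndufa7 rose by 0.28 (SE 0.0786, adjusted p = 0.00215).

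In complex II, only Sdhd, a membrane anchor subunit, passed, at -0.17 ± 0.0748 (adjusted p = 0.0396), and leaving out any one of 10 hearts ended that call, the adjusted p then reaching 0.0852. The catalytic Sdha stood at 0.11 ± 0.0677 (adjusted p = 0.150). In complex III, the core protein Uqcrc1 fell by 0.39 (SE 0.0988, adjusted p = 6.61e-04), from a Ctrl range of 1042 to 1447 CPM (median 1248) to 615 to 1330 in Doxo hearts (median 920). The Rieske protein Uqcrfs1 fell by 0.27 (adjusted p = 0.00485). The small subunit Uqcr10 rose by 0.20 (adjusted p = 0.0145, and 0.0564 without Doxo replicate 10), and Uqcrq stood at -0.12 (adjusted p = 0.252).

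In complex IV, Cox6a1 fell by 0.38 (SE 0.110, adjusted p = 0.0024) from 33.3 to 43.6 CPM in Ctrl (median 37.1) to 16.6 to 38.4 in Doxo hearts (median 29), with 9 Doxo hearts below every Ctrl heart. Its striated muscle counterpart Cox6a2 stood at 0.15 (adjusted p = 0.105). Cox4i2, the minor isoform of subunit 4, fell by 0.29 (adjusted p = 0.0250, and 0.0505 without Doxo replicate 8), and the main isoform Cox4i1 stood at 0.07 (adjusted p = 0.447). Cox8a and Cox8b stood at -0.02 and -0.12 (adjusted p = 0.674 and 0.295). Cox6c and its near copy Cox6c2, which share 97.0% identity over 231 bases so that reads may be split between them, rose by 0.25 and 0.30 (adjusted p = 9.02e-04 and 0.0151).

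In complex V, the c ring subunit of the rotor is encoded by 3 genes, of which 1 fell, 1 rose and 1 did not pass. The last, Atp5g3, had the highest level per length (513 CPM/kb in acute Ctrl hearts). In mean CPM it was closer to Atp5g1 (1120 and 862), whose merged exons are longer (4912 against 2181 bases). Atp5g3 had 936 to 1345 CPM in Ctrl (median 1115) and 783 to 1402 in Doxo hearts (median 1139). Its log2 fold change was 0.03 ± 0.0843 (adjusted p = 0.743). Atp5g1 fell by 0.54 (SE 0.105, adjusted p = 2.33e-05), with 712 to 1036 CPM in Ctrl (median 854) and 390 to 912 in Doxo hearts (median 556), 10 of 13 of these below every Ctrl heart. Atp5g2 rose by 0.25 (SE 0.0579, adjusted p = 2.26e-04), from a median of 162 to 192 CPM. Both have annotated copies, Gm10039 at 99.8% identity to Atp5g1 and Gm10175 at 100% over 127 bases of Atp5g2, absent from the acute table. The membrane subunits Atp5j2 and Atp5k fell by 0.25 and 0.24 (adjusted p = 0.00358 and 0.00598), and Atp5l rose by 0.31 (adjusted p = 2.21e-04). Atp5a1, part of the catalytic head, stood at 0.06 ± 0.0744 (adjusted p = 0.445).

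Mitochondrial DNA genes gave 2 calls, both higher. mt-Nd6, a complex I subunit and the one protein-coding gene transcribed from the other strand, had 3523 to 4825 CPM in Ctrl (median 4070) and 3957 to 8045 in Doxo hearts (median 5151), and 8 of 13 Doxo hearts were above every Ctrl heart. Its log2 fold change was 0.39 ± 0.0907 (adjusted p = 2.3e-04). The highest were replicates 4, 10 and 5, with 8045, 7218 and 6633 CPM. Whether the authors counted by strand is not given in the sources used here, and reads of mt-Nd6 and of RNA from the opposite strand cannot be told apart. mt-Atp6 also rose, by 0.26 (SE 0.0972, adjusted p = 0.0181), a call lost without Doxo replicate 4 or 10 (adjusted p up to 0.0630).

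The neighbour of mt-Nd6, mt-Nd5, lay just above the threshold at 0.17 ± 0.0798 (adjusted p = 0.0501), and passed without any one of 9 hearts. The other 10 genes ranged from -0.07 (mt-Co1 and mt-Nd2) to 0.13 (mt-Atp8), with mt-Cytb at 0.08, mt-Nd4 at 0.04, mt-Nd1 at 0.01, mt-Nd3 and mt-Nd4l at -0.03, and mt-Co2 and mt-Co3 at -0.05. For mt-Co1 the hearts overlapped broadly, with 71680 to 103772 CPM in Ctrl (median 86277) and 57845 to 109204 in Doxo (median 83477).

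**Figure D3:**
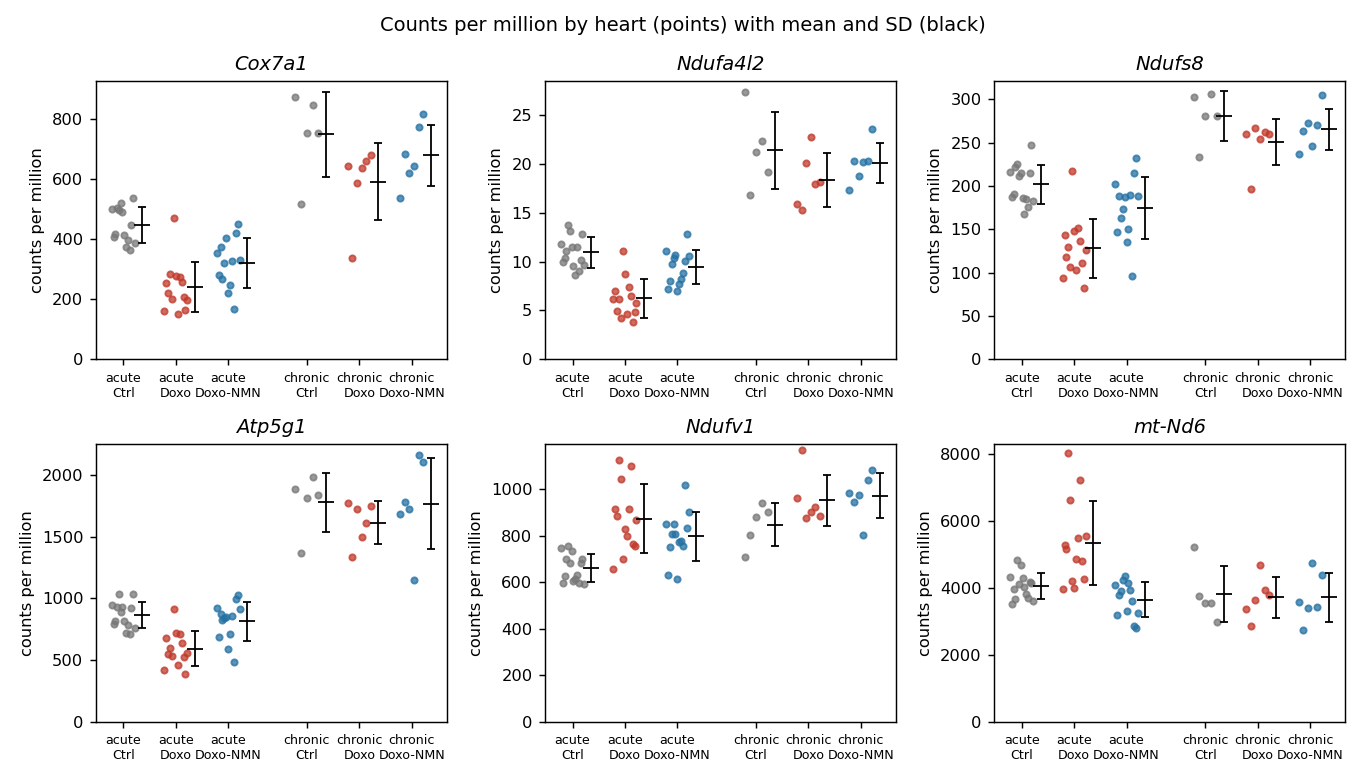
Level (CPM) in each heart (points) with the mean and SD of its group (black) for 5 nuclear genes and mt-Nd6, with acute groups on the left and chronic groups on the right of each panel. Cox7a1, Ndufa4l2, Ndufs8 and Atp5g1 are lower in acute Doxo than in acute Ctrl hearts except for a few points, Ndufv1 and mt-Nd6 are higher, and the chronic groups overlap.

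Genes that build and feed the chain were counted beside its subunits in acute Doxo vs. Ctrl, where 34.8% of all genes were higher and 33.3% lower. Of 46 assembly factors tested, 4 were higher and 31 lower (median log2 fold change -0.39), including Bcs1l (-1.19), which inserts the Rieske protein, the complex I factors Tmem126b (-0.95) and Ndufaf5 (-0.72), and the complex IV factor Coa4 (-0.86). Of 22 genes that copy, transcribe and process mitochondrial DNA, 5 were higher and 16 lower (median -0.32), with the DNA-packaging factor Tfam at -0.43, the rRNA methyltransferase Tfb1m at -0.78 and the single-strand binding protein Ssbp1 at 0.26. Of 16 electron carriers and ubiquinone genes, 3 were higher and 9 lower (median -0.25), with Pdss2 and Coq5 of ubiquinone synthesis at -0.59 and -0.52. Cyc1, the cytochrome c1 of complex III that is listed with the carriers, was at -0.41. The difference between these lists and the subunits was not tested.

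The second comparison asked what NMN changed in Doxo-treated hearts. Doxo-NMN vs. Doxo had 17 members higher and 7 lower of 99, against a background of 25.7% higher and 27.4% lower. With at least 1.5-fold as well, 1 was higher and 0 lower (background 8.17% and 8.88%). By genome, nuclear genes gave 17 higher and 2 lower of 86 (median 0.10), and mitochondrial DNA 0 higher and 5 lower of 13 (median -0.20), with a median of -8e-04 over all genes. The difference between the genomes was not tested. Nuclear calls by complex were 11 higher and 0 lower in complex I, 1 and 0 in complex II, 1 and 0 in complex III, 2 and 1 in complex IV, and 2 and 1 in complex V. This comparison uses the same Doxo hearts as Doxo vs. Ctrl, so the values of the 2 comparisons are not independent.

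Beside these calls, the cardiomyocyte marker sum was higher in Doxo-NMN hearts (median 72269 CPM, 4 of 7 markers higher and 1 lower), all 5 red blood cell and all 3 neutrophil markers tested were lower, 2 endothelial markers were lower, 2 fibroblast markers were higher and 3 lower, 2 macrophage markers were higher, the 1 brown fat marker tested was lower, and no atrial marker passed. Their part in the members' changes was not tested. Among hearts with Myl4 under 100 CPM (8 Doxo, 9 Doxo-NMN), 8 nuclear genes were higher and 4 lower, and 0 mitochondrial DNA genes were higher and 6 lower, against 18.3% and 20.8% of all genes in that fit. Among hearts at or above it (5 and 4), the counts were 11 and 0 for nuclear genes and 0 and 1 for mitochondrial DNA, against 18.6% and 20.7%. Without Doxo replicate 6, 23 members were higher and 7 lower, against 28.7% and 29.4%.

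Ndufa4l2 rose most, by 0.59 ± 0.122 (adjusted p = 1.46e-04), to 6.99 to 12.8 CPM in Doxo-NMN hearts (median 9.72), and every Doxo-NMN heart was above the Doxo median. Ndufs8 rose by 0.45 ± 0.112 (adjusted p = 0.00112), to 95.6 to 232 CPM (median 188). Atp5g1 rose by 0.46 ± 0.107 (adjusted p = 5.36e-04), to 486 to 1024 CPM (median 848). Cox6a1 rose by 0.45 ± 0.112 (adjusted p = 9.45e-04), to 29.6 to 54.1 CPM (median 38.5), and 7 of 13 Doxo-NMN hearts were above every Doxo heart. All these ranges overlapped those of Doxo hearts.

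Cox7a1 rose by 0.42 ± 0.138 (adjusted p = 0.00916), to 167 to 450 CPM (median 327), and its share of the pair with Cox7a2 had a median of 72.3%. Within the Myl4 classes its change was 0.38 (adjusted p = 0.102) in hearts under 100 CPM and 0.47 in the others. Smaller rises were seen for Atp5d, the delta subunit of complex V (0.27, adjusted p = 0.0109), Ndufv3 (0.27, adjusted p = 0.0134), Uqcrc1 (0.25, adjusted p = 0.0322) and Sdhd (0.20, adjusted p = 0.0276). The last 2 calls were lost without any one of 7 and 3 hearts, with adjusted p up to 0.0675 and 0.0574. Cox6c and Atp5l, both higher in Doxo vs. Ctrl, were lower by 0.19 each (adjusted p = 0.0131 and 0.0271), the latter call being lost without Doxo replicate 2, 4, 9 or 10 or Doxo-NMN replicate 2 (adjusted p up to 0.0820).

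Of the mitochondrial DNA genes, mt-Nd6 fell by 0.55 ± 0.0927 (adjusted p = 1.14e-05), to 2801 to 4346 CPM in Doxo-NMN hearts (median 3792), with 9 of 13 below every Doxo heart and all 13 below the Doxo median. mt-Nd5 fell by 0.33 ± 0.0814 (adjusted p = 9.07e-04), from a Doxo median of 22729 to 18624 CPM. mt-Atp8 fell by 0.34 (adjusted p = 0.00282), mt-Cytb by 0.22 (adjusted p = 0.0181) and mt-Atp6 by 0.25 (adjusted p = 0.0327, and up to 0.0940 without any one of 8 hearts). All 13 genes had a negative log2 fold change, the smallest being -0.07 for mt-Co1 and mt-Nd1. These values rest on the library scaling. As an unscaled share of all counts, mt-Co1 had a mean of 7.88% in Doxo and 8.05% in Doxo-NMN hearts. The 13 genes together had a mean share of 19.7% and 19.1%. In the Myl4 classes mt-Nd6 stood at -0.67 in the low and -0.34 in the high class, and mt-Nd5 at -0.40 and -0.22 (adjusted p = 0.112 in the high class).

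In the same comparison, where 25.7% of all genes were higher and 27.4% lower, the accompanying lists were counted as well. Assembly factors gave 28 higher and 1 lower of 46 (median 0.30), with Bcs1l at 0.98, Coa4 at 0.80 and Tmem126b at 0.72. Genes of mitochondrial DNA expression gave 13 higher and 3 lower of 22 (median 0.25), with the polymerase Polg at 0.38, Tfb1m at 0.66, the RNA helicase Supv3l1 at 0.71 and the poly(A) polymerase Mtpap at -0.27. Electron carriers gave 7 higher and 2 lower of 16 (median 0.20), with Pdss2 at 0.52, Coq5 at 0.43, and the electron transfer flavoprotein gene Etfa and the ubiquinone factor Coq8b at -0.27 and -0.42.

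Doxo-NMN vs. Ctrl set the NMN-treated hearts against hearts with neither agent. Here 5 members were higher and 2 lower of 99, against a background of 15% and 11.1%, and 0 passed at 1.5-fold (background 3.31% and 3.79%). Those higher were Ndufa6 (0.31, adjusted p = 0.00372), an accessory subunit of complex I, Ndufv1 (0.27, adjusted p = 0.00667), Cox6a2 (0.27, adjusted p = 0.0145), Uqcr10 (0.22, adjusted p = 0.0222) and Atp5g2 (0.19, adjusted p = 0.0129). Cox7a1 stayed lower at -0.48 ± 0.135 (adjusted p = 0.00817), with 9 of 13 Doxo-NMN hearts below every Ctrl heart. mt-Nd4l was at -0.23 (adjusted p = 0.0455), a call lost without any one of 16 hearts (adjusted p up to 0.0915), as that of Uqcr10 was without Doxo-NMN replicate 11 (adjusted p = 0.0561). Ndufa4l2 and Ndufs8 stood at -0.22 and -0.21 (adjusted p = 0.179 and 0.152), and mt-Nd6 at -0.16 (adjusted p = 0.206). Assembly factors gave 2 higher and 2 lower, mitochondrial DNA expression genes 1 and 1, and electron carriers 1 and 0.

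The counts of Doxo-NMN vs. Ctrl changed with the Myl4 class. Among hearts under 100 CPM 0 members passed by edgeR (23 at an unadjusted p under 0.05), against 4.43% of all genes higher and 3.45% lower. Among hearts at or above it, 0 were higher and 2 lower, against 4.78% and 4.35%. With the Myl4 class as a term in the fit over all hearts, 4 were higher and 19 lower, against 14.9% and 12%. Of the cell type markers, all 5 red blood cell markers, 4 of 5 fibroblast, 2 of 5 endothelial and 1 of 5 macrophage markers were lower, all 3 neutrophil markers tested were higher, and 1 cardiomyocyte marker was higher and 2 lower of 7. No atrial or brown fat marker passed. The part of these markers in the members' changes was not tested.

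**Figure D4:**
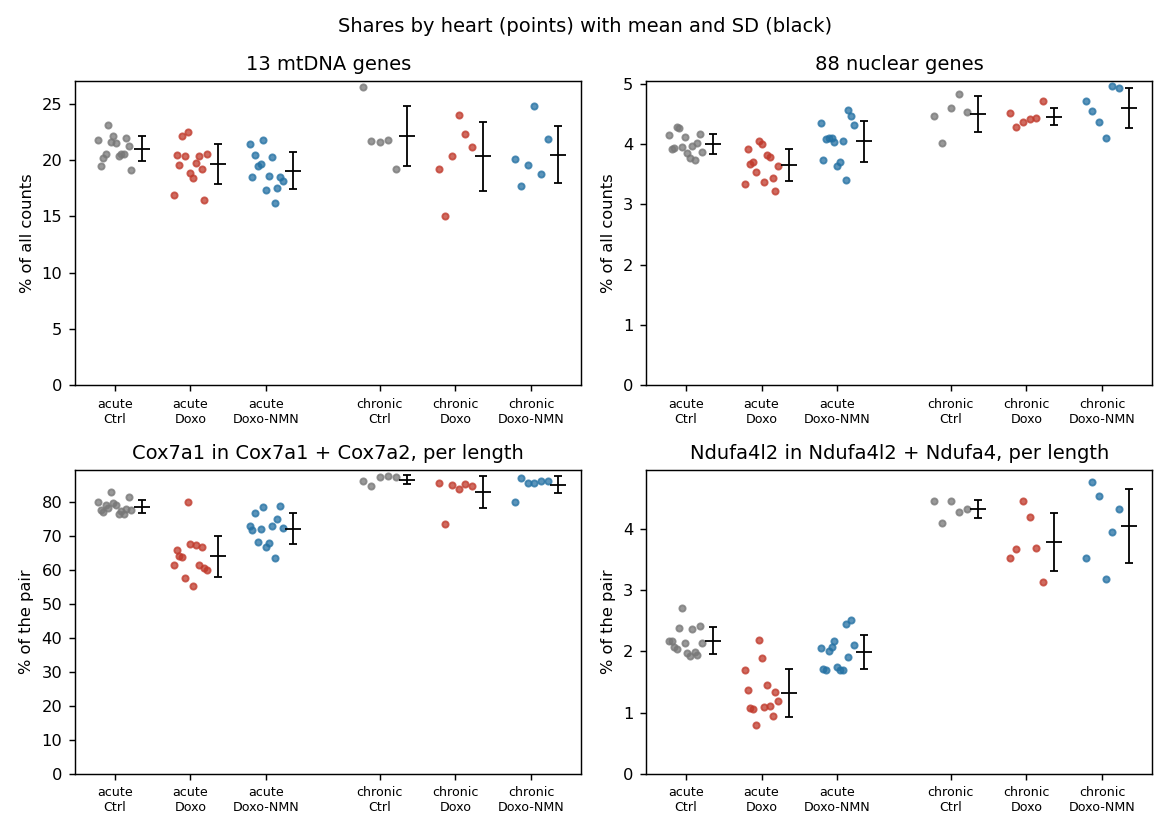
Share of all counts taken by the 13 mitochondrial DNA genes and the 88 nuclear genes (upper panels, percent), and share per length of Cox7a1 in the sum of Cox7a1 and Cox7a2 and of Ndufa4l2 in the sum of Ndufa4l2 and Ndufa4 (lower panels, percent of the pair), for each heart with the mean and SD of its group. The Cox7a1 share has a median of 78.1% in acute Ctrl, 63.9% in acute Doxo and 72.3% in acute Doxo-NMN hearts, and between 84.9% and 87.4% in the chronic groups.

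In the chronic hearts, 60 days after the first of 5 smaller Doxo doses, 0 of 93 members tested passed in any of the 3 comparisons by edgeR, DESeq2 or limma-voom. The background was also near 0, at 0.0602% of 14960 genes for Doxo vs. Ctrl, 0% for Doxo-NMN vs. Doxo and 0.0401% for Doxo-NMN vs. Ctrl. At an unadjusted p under 0.05 there were 2, 1 and 0 members, against a background of 7.85%, 2.95% and 4.73%. For 86, 88 and 89 of the 93 members the 95% interval (1.96 SE) lay within a 1.5-fold change either way. The median SE was 0.121, 0.115 and 0.121, against 0.080 to 0.081 in the acute comparisons. The assembly, mitochondrial DNA expression and carrier lists also gave 0 calls.

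For chronic Doxo vs. Ctrl the smallest p belonged to Atp5g2, Cox6a1 and Cox7a1. Atp5g2 had 67.5, 79.8, 88.1, 95.2 and 84.9 CPM in the 5 Ctrl hearts and 91.6 to 129 in Doxo hearts (median 98.8), a log2 fold change of 0.30 ± 0.125 (unadjusted p = 0.0281, adjusted p = 0.602). Cox6a1 had 201, 109, 143, 166 and 142 CPM in Ctrl and 112 to 135 in Doxo hearts (median 125), a change of -0.28 ± 0.130 (unadjusted p = 0.0410, adjusted p = 0.621). Both pairs of groups overlapped. Cox7a1 had 871, 515, 753, 846 and 753 CPM in Ctrl hearts and 336 to 679 in Doxo hearts (median 640), a change of -0.34 ± 0.165 (unadjusted p = 0.0528, adjusted p = 0.641). The lowest, 336 CPM, was replicate 2, which also had the lowest red blood cell, cardiomyocyte, endothelial, fibroblast and macrophage sums (16.2, 64929, 668, 451 and 73.3 CPM) and the highest neutrophil and brown fat sums (5.63 and 43.7 CPM) of its group. Its atrial sum was also the highest, at 536 CPM, but 534 of these came from Nppa, and Myl4 was at 1.44 CPM, within the 1.43 to 2.45 of its group. The part of these in the value was not tested.

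Respiratory chain genes that the study names for these hearts, chosen on these samples, all had negative values in Doxo vs. Ctrl with adjusted p of 0.641 or more: Ndufv3 -0.23, Uqcrq -0.23, Ndufa4l2 -0.22, Cox8b -0.20, Ndufs8 -0.17 and Atp5k -0.12, beside Cox7a1. Ndufa4l2 had 27.3, 16.9, 21.3, 22.3 and 19.2 CPM in Ctrl and 15.3 to 22.8 in Doxo hearts (median 18.0). Ndufs8 had 303, 233, 281, 306 and 281 CPM in Ctrl and 197 to 267 in Doxo hearts (median 260). In both, the groups overlapped. Of the mitochondrial DNA genes, mt-Co1 stood at -0.15 ± 0.128 and mt-Nd6 at -0.04 ± 0.160, and mt-Co2 at -0.72 ± 0.355 rested on 4 to 30 counts a heart.

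For chronic Doxo-NMN vs. Doxo, Cox6a1 was the one member whose groups did not overlap, with 143 to 198 CPM in Doxo-NMN hearts (median 152) against 112 to 135 in Doxo hearts. Groups did not overlap for 0.16% of all genes. Its log2 fold change was 0.40 ± 0.124 (unadjusted p = 0.00473, adjusted p = 0.999). The next smallest p belonged to Atp5j, coupling factor 6 of complex V (0.20 ± 0.105), and mt-Co2 (0.61 ± 0.338, on few counts). For Doxo-NMN vs. Ctrl they belonged to Atp5g2 (0.24 ± 0.125), Ndufv1 (0.20 ± 0.105) and mt-Nd3 (-0.49 ± 0.317), all with adjusted p = 0.999.

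Whether the Doxo effect differed between the studies was tested as an interaction in 1 fit over both tables, the study itself being a term. The studies differ in age, vehicle, dosing, timing, sequencing site and counting, which cannot be told apart. Of 99 members, 1 had a different Doxo effect, against 23.6% of 15152 genes. This was Ndufa4l2, with an acute effect lower than the chronic one by 0.59 on the log2 scale (difference -0.59 ± 0.211, adjusted p = 0.0376). Each chronic heart was left out in turn, and no acute heart. The call of Ndufa4l2 was lost without chronic Ctrl replicate 3 or Doxo replicate 3, 4 or 6, and without a filter on low counts (adjusted p = 0.0512). Ndufs8 (-0.49 ± 0.191, adjusted p = 0.0529), mt-Nd6 (0.43 ± 0.181, adjusted p = 0.0752) and Cox7a1 (-0.56 ± 0.248, adjusted p = 0.0872) were above the threshold. Without chronic Doxo replicate 2, 3 members passed, all lower. For the NMN effect in Doxo hearts, 0 members passed by edgeR (3 at an unadjusted p under 0.05), against a background of 6.09%, and the smallest adjusted p was 0.0523, for mt-Nd6 (-0.54 ± 0.176). In the test of the Doxo effect, 1967 of all 15152 genes were higher and 1609 lower. Of 46 assembly factors, 0 were higher and 10 lower, including Bcs1l at -0.99 (adjusted p = 0.00631). Of 22 genes of mitochondrial DNA expression, 2 were higher and 3 lower.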

How the data were processed

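RNA of 57 hearts was sequenced after poly(A) selection as single-end reads on a NovaSeq, the acute and chronic studies at different sites. The authors aligned reads to mm10 with STAR (2.7.3a in the submitters' processing notes) and counted them with featureCounts 2.0.0, and deposited 1 table of raw gene counts per study. The annotation, strand setting and handling of multi-mapped reads are not given in the sources used here. Most low acute counts were even, so that 1 read may stand as 2 counts there, and the acute floor then covers fewer reads than 3. All value columns were mapped to samples (0 unused).

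The members and all gene lists were chosen with earlier results of these data known. Named were all mitochondrial DNA genes, the 2 smallest adjusted p per complex and direction, members past 1.5-fold, the isoform pairs of complex IV, genes the study names, in chronic comparisons the 3 smallest p, and the highest level per length in each complex. Atp5b and the named genes of the other lists were chosen after their values were seen.

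Counts were fitted per study over all 3 groups with edgeR 4.0.16 in R 4.3.3 (TMM, filterByExpr, quasi-likelihood F test, Benjamini-Hochberg over all genes tested, threshold 0.05), with SE as the log2 fold change over the square root of F. The interaction used both tables in 1 fit. CPM used TMM-scaled library sizes, with per-length values over merged exons of GENCODE M21. Merged exons join all annotated transcripts of a gene, so the order per length depends on the annotation. The floor of 3 counts was 0.0576 to 0.0926 CPM in acute hearts. Copies were sought with blastn 2.17.0+ (at least 95% identity over 100 bases). Alternatives were RLE scaling, no low-count filter, DESeq2 1.42.0, limma-voom (limma 3.58.1), 2 groups only, a replicate block, scaling without mitochondrial DNA, Myl4 classes (100 CPM), halved acute counts, a 1.5-fold threshold and leaving out each heart (only chronic hearts for the interaction). Same-numbered hearts were not treated as pairs in the main fits. Correlations of their deviations ran from -0.62 to 0.58, and in each acute comparison 1 of 13 hearts matched its own number best.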

Additional observations from a re-analysis of the deposited data

Results flagged for a closer look

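The chronic groups, which fall within 4 to 10 hearts, were tested for a heart far from the others, 1 measure at a time. Of 165 such tests, 22 flagged a heart. A single test does so by chance in about 1 in 20 cases. Measures of the same hearts are not independent, so the 22 cannot be judged against that rate. The acute groups, each of more than 10 hearts, were not tested. In Doxo replicate 2, Cox7a1 (336 CPM), Ndufs8 (197), Uqcrfs1 (558) and mt-Co1 (62209) were low, Atp5g2 (129), Cox6a2 (1769) and Ndufv1 (1166) were high, and the isoform shares stood at 73.6% for Cox7a1 and 87.2% for Cox8b. This heart also had the highest neutrophil and brown fat and the lowest red blood cell, cardiomyocyte, endothelial, fibroblast and macrophage marker sums of its group, whose part was not tested. Its atrial sum was the highest through Nppa, with Myl4 at 1.44 CPM. In Doxo-NMN replicate 4, Atp5a1 (3252 CPM), Atp5g2 (66.0) and Cox8b (346) were low, with a Cox8b share of 86.9% and a mean log2 CPM of complex II of 9.09. That heart had the lowest cardiomyocyte sum of its group (59114 CPM). Its fibroblast, endothelial and atrial sums were the highest (973, 1062 and 292 CPM), as was its Myl4 (83.8 CPM). The part of these markers was not tested. In Ctrl replicate 1, Atp5a1 (2585 CPM), Sdha (695) and the mean log2 CPM of complex II (8.75) were low and mt-Nd3 (11.3 CPM) was high. Its cardiomyocyte sum was the lowest of its group (63394 CPM). Its endothelial, fibroblast, macrophage, atrial and neutrophil sums were the highest (1402, 588, 132, 205 and 0.871 CPM). The part of these sums was not tested. Single values were mt-Nd4l in Ctrl replicate 3 (0.149 CPM) and Doxo-NMN replicate 5 (0.0427), both of very few counts, mt-Nd3 in Doxo replicate 5 (4.87), and a Cox7a1 share of 80.1% in Doxo-NMN replicate 1. Besides these, the Doxo effect on Ndufa4l2 differed between the studies by the interaction test (acute minus chronic -0.59 on the log2 scale).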

How the results depend on the processing

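One called member changed direction, Ndufa1 in acute Doxo vs. Ctrl, from 0.17 to -0.0132 on the log2 scale (adjusted p = 0.874) among hearts with Myl4 of at least 100 CPM. For acute Doxo vs. Ctrl, of 352 checks of all called members under the alternatives, 321 kept the call, for Doxo-NMN vs. Doxo 221 of 264, and for Doxo-NMN vs. Ctrl 62 of 77. Leaving out 1 heart changed the direction of none of these calls and ended 9 of 32, 7 of 24 and 2 of 7 at least once. Asking for 1.5-fold as well left 3, 1 and 0 members in these comparisons. For Doxo-NMN vs. Doxo (24 members), limma-voom gave 39 (36 higher, 3 lower) and hearts with Myl4 of at least 100 CPM 12. For Doxo-NMN vs. Ctrl (7 members), fitting the 2 groups only gave 13, a Myl4 term 23 (4 higher, 19 lower), limma-voom 20 (16 higher, 4 lower), low-Myl4 hearts 0 and high-Myl4 hearts 2. For the difference of the Doxo effect between studies (1 member), RLE scaling gave 2, no low-count filter 0 and halved acute counts 2, and for that of the NMN effect (0 members) RLE scaling and halved counts each gave 1. The cause was not tested. Shares of all genes are given above for the 1.5-fold and Myl4 settings. For most other counts here and in the next paragraph no such share is given. Whether these counts move with the calls over all genes was not tested.

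Leaving out 1 heart gave 28 to 38 members for acute Doxo vs. Ctrl, 22 to 32 for Doxo-NMN vs. Doxo, 6 to 9 for Doxo-NMN vs. Ctrl, 0 to 3 for the difference of the Doxo effect and 0 to 1 for that of the NMN effect (chronic hearts only), and 0 in every chronic fit. For the Doxo effect, 6 of 17 hearts moved the count: without chronic Ctrl replicate 1 it was 2, without Doxo replicate 4 it was 2, without Doxo replicate 2 it was 3, and without Ctrl replicate 3 or Doxo replicates 3 or 6 it was 0. For the NMN effect it was 1 without Ctrl replicate 1, Doxo replicate 4 or Doxo-NMN replicate 2. With the replicate number as a block, the counts were 28, 19 and 6 in the acute comparisons, 0 in the chronic ones, and 1 and 0 for the differences between studies. The numbers were not taken to pair the hearts: in each acute comparison 1 of 13 hearts correlated best with its own number. Same-numbered hearts correlated over 0.1 in 3, 7 and 8 of 13 acute pairs. The mean log2 CPM of the 13 mitochondrial DNA genes differed by 0.04 (log2) between acute Doxo and Ctrl and by -0.05 with total counts as the scale, less than the spread between hearts. Myl4 alternatives were not run for chronic hearts, all 17 of which were under 100 CPM. The highest of these was Doxo-NMN replicate 4, at 83.8 CPM. Few counts limit the precision of mt-Atp8 and mt-Nd4l in the chronic hearts (at most 4). In CPM, which is scaled to library size, mt-Atp8 had a mean of 284 in acute and 0.0424 in chronic Ctrl hearts. What set this difference between the tables was not tested.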
